A study of Mus musculus with 26 samples.

Results

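The untreated state of postnatal cochlear supporting cells was described from 3 RNA libraries, which are 3 of the 14 RNA libraries and of the 26 samples in the series. Membership was set by the labels alone and by no measured value: supporting cells of mice at postnatal day 1, cultured for 24 h with DMSO, with RNA sequenced as poly(A) libraries. Whole cochleae were kept on filter membranes in L15 medium with N2, B27, penicillin, HEPES, EGF at 5 ng/ml and FGF at 2.5 ng/ml. DMSO is the solvent of DAPT, a gamma-secretase inhibitor that blocks Notch signalling, and no DAPT was given to these cultures. The organs were then digested with 0.125% trypsin for 8 min, and cells carrying the Lfng-GFP reporter were sorted by flow cytometry straight into lysis buffer. The labels name no strain, sex or further allele. The reporter follows Lfng, so the sort takes cells with an active Lfng regulatory region and does not separate the classes of supporting cell from each other. Each cell had spent a day in medium with 2 growth factors and had passed through enzymatic dissociation before its RNA was taken, so the levels are those of cultured, dissociated cells. The labels do not say whether the 3 replicates came from separate animals or cultures, and Y-linked genes and Xist differed between them. All values were descriptions of 1 group, and no test was run.

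Supporting cells are the non-sensory cells of the organ of Corti. Pillar cells, Deiters cells, inner phalangeal cells and border cells surround the sensory hair cells, and at birth they are flanked by the greater epithelial ridge on the inner side and the lesser epithelial ridge on the outer side. They hold hair cells in place, take up potassium through gap junctions, and in the newborn epithelium lie beside cells that secrete the tectorial membrane over the hair bundles. Hair cells carry Notch ligands, and Notch signalling in their neighbours switches on Hes and Hey repressors, which keep these neighbours from becoming hair cells by repressing Atoh1. TPM, the number of transcripts of a gene per 1000000 transcripts, is a level per unit of transcript length, so levels of different genes can be set side by side within a library.

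The 3 libraries held 10666050, 12124862 and 11593429 expected counts, an estimate of the reads on each gene. Values of the 3 libraries are given in the order of their replicate numbers throughout. Of 48709 gene identifiers, 14441 (29.6%) reached 1 TPM in every library, 9450 (19.4%) reached 10 TPM, 1802 (3.70%) reached 100 TPM and 87 reached 1000 TPM. Another 24018 identifiers were at 0 in every library. A count of 0 allows up to 3 counts, which is 0.281, 0.247 and 0.259 counts per 1000000 in these libraries, for counting error alone. Each library by itself reached 1 TPM for 15857, 15893 and 15881 genes. No pair of libraries was alike within sampling noise: the mean chi-square of their counts per gene lay between 10.3 and 13.3. The median per gene was 1.74 to 2.43, so a minority of genes carried the mean, though the median too was above what sampling noise alone gives. A gene stood apart in a replicate where it was at least 1.5-fold higher, or lower, there than in both other replicates. Over the 8967 genes with a curated symbol, a mean of at least 10 TPM and at least 100 expected counts on average, 63 genes (0.703%) stood higher and 50 (0.558%) lower in replicate 1. The counts were 15 higher (0.167%) and 56 lower (0.625%) in replicate 2, and 75 higher (0.836%) and 55 lower (0.613%) in replicate 3. Replicate 3 stood apart in genes of glycolysis and of the response to low oxygen, whose values follow the cell identities.

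The transcriptome was moderately concentrated. The 10 most abundant genes of a library held 7.53% ± 0.173 of its TPM, the top 100 genes held 23.4% ± 0.265 and the top 1000 genes held 53.9% ± 0.333 (SD, n = 3). Mitochondrially encoded genes led the ranking, with 14339.7, 14557 and 13202 TPM for mt-Atp6, a subunit of ATP synthase, and 11144, 13093 and 15030.4 TPM for mt-Co3, a subunit of cytochrome c oxidase. Sequences of the mitochondrial genome also have copies among nuclear genes, and reads can be split between them: the nuclear copy Gm28437 was at 899, 1921 and 59.1 TPM. The levels of single mitochondrial genes are therefore uncertain.

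Among nuclear genes outside the ribosomal proteins, the 25 most abundant mixed general cell machinery with genes long tied to the inner ear. The first was Malat1, a nuclear long noncoding RNA, at 9007, 6812 and 6128 TPM. Eef1a1, the translation elongation factor that delivers tRNA to the ribosome, followed at 5617, 6225 and 6949 TPM. Its 3 values were closer to each other than those of Malat1, which was highest in replicate 1. Sparc, a secreted glycoprotein that binds collagen, stood at 6148, 6245 and 5856 TPM. Tectb, which encodes beta-tectorin of the tectorial membrane, was the fourth nuclear gene at 6209, 5686 and 6062 TPM. Both secreted products had close values in all 3 libraries, with a coefficient of variation (CV) of 3.33% for Sparc and 4.50% for Tectb.

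Skp1a and Fbxo2, 2 partners of one ubiquitin ligase that were first known as abundant organ of Corti proteins, both stood in the top 25. Skp1a was at 2843, 3526 and 3296 TPM and Fbxo2, the subunit that recognises glycoproteins, at 2574, 2499.9 and 2006 TPM. Fbxo2 was lowest in replicate 3 and Skp1a in replicate 1. Hes5, a repressor induced by Notch, was at 3379.6, 2899.8 and 3134 TPM and ranked 18 among all genes. Col2a1, the collagen of cartilage and of the tectorial membrane, was at 2979, 2972 and 3003 TPM, with a CV of 0.552%. It had the smallest CV of the 25.

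**Figure D1:**
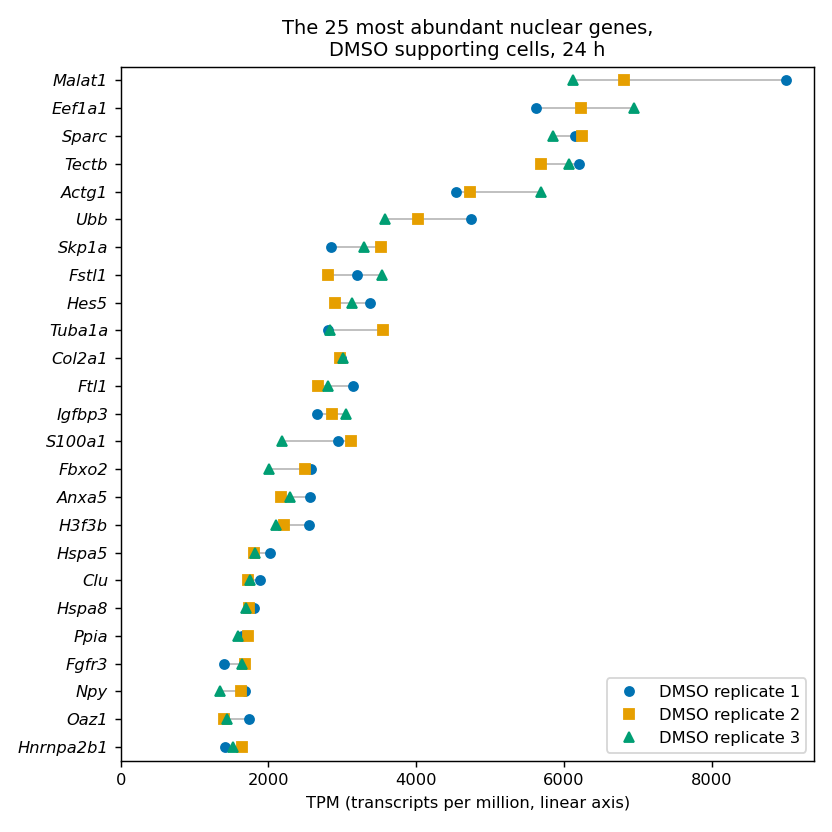
The 25 most abundant nuclear genes outside the ribosomal proteins, ordered by mean TPM, with 1 point for each DMSO library on a linear TPM axis and a grey line over the range. Malat1 spans 9007, 6812 and 6128 TPM and stands out in replicate 1, while the points of Col2a1 nearly coincide.

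The rest of the top 25 fell into secreted and signalling genes, supporting cell genes, and housekeeping genes. Fstl1, a secreted relative of follistatin, was at 3198, 2801 and 3537 TPM, and Igfbp3, which binds insulin-like growth factors, at 2661, 2854 and 3052 TPM. Clu, a secreted chaperone, was at 1885, 1718 and 1750.0 TPM. S100a1, a calcium-binding protein of supporting cells, was at 2946, 3115 and 2178 TPM and was lowest in replicate 3. Fgfr3, the FGF receptor of pillar and Deiters cells, was at 1393, 1687 and 1637 TPM, and Npy, the precursor of neuropeptide Y, at 1679, 1633 and 1338 TPM. Both receptor and peptide were thus among the 50 most abundant genes of these cells, at ranks 42 and 43. The others were Actg1, Ubb, Tuba1a, Ftl1, Anxa5, H3f3b, Hspa5, Hspa8, Ppia, Oaz1 and Hnrnpa2b1, with mean levels between 1524 TPM for Hnrnpa2b1 and 4983 TPM for Actg1. Actg1, Ubb, Tuba1a, Eef1a1, Ftl1, H3f3b, Ppia, Oaz1 and Hnrnpa2b1 have close paralogs or processed pseudogenes, which can share reads with them, so their own levels are uncertain.

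By family, the mitochondrially encoded genes held 6.54% ± 0.257 of TPM and the cytosolic ribosomal protein genes 5.55% ± 0.152 (SD, n = 3), together 12.1%. The nuclear-encoded subunits of the respiratory chain and ATP synthase held 1.85%, 1.81% and 1.62%. Heat shock proteins and chaperonins held 1.23% ± 0.0274 and solute carriers, a family of 375 genes of which 221 reached 1 TPM in every library, held 1.01% ± 0.0143. These 5 of the 32 families were the ones at 1% or more.

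Smaller families held large shares through few members. Hes and Hey repressors, 9 genes of which 6 reached 1 TPM, held 0.439% ± 0.0325, and most of it was Hes5. Id proteins, 4 genes that block basic helix-loop-helix factors such as Atoh1, held 0.450% ± 0.0225, with Id3 at 1567, 1360.2 and 1415 TPM and Id4 at 1207, 1117 and 1042 TPM. All 4 Id genes were at comparable levels, from 864 TPM for Id1 to 1447 TPM for Id3 on average. Insulin-like growth factor binding proteins held 0.444% ± 0.0416, led by Igfbp3 and by Igfbp5 at 1346, 1302 and 1572 TPM. AP-1 factors, 7 genes for the early response to stimuli, held 0.311%, 0.245% and 0.321%, and S100 proteins held 0.370%, 0.383% and 0.277%. Both were among the less even families: AP-1 was lowest in replicate 2 and S100 in replicate 3. Claudins, which seal tight junctions, held 0.229% ± 0.0127, most of it in Cldn9 at 1465, 1475 and 1580.3 TPM. Keratins held 0.0625% ± 0.00867, in Krt18 at 378, 259.9 and 303 TPM and Krt8 at 273, 236 and 278 TPM, the pair of simple epithelia. Of the 32 families, 26 had a CV of their share under 10% and 11 had one under 5%.

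**Figure D2:**
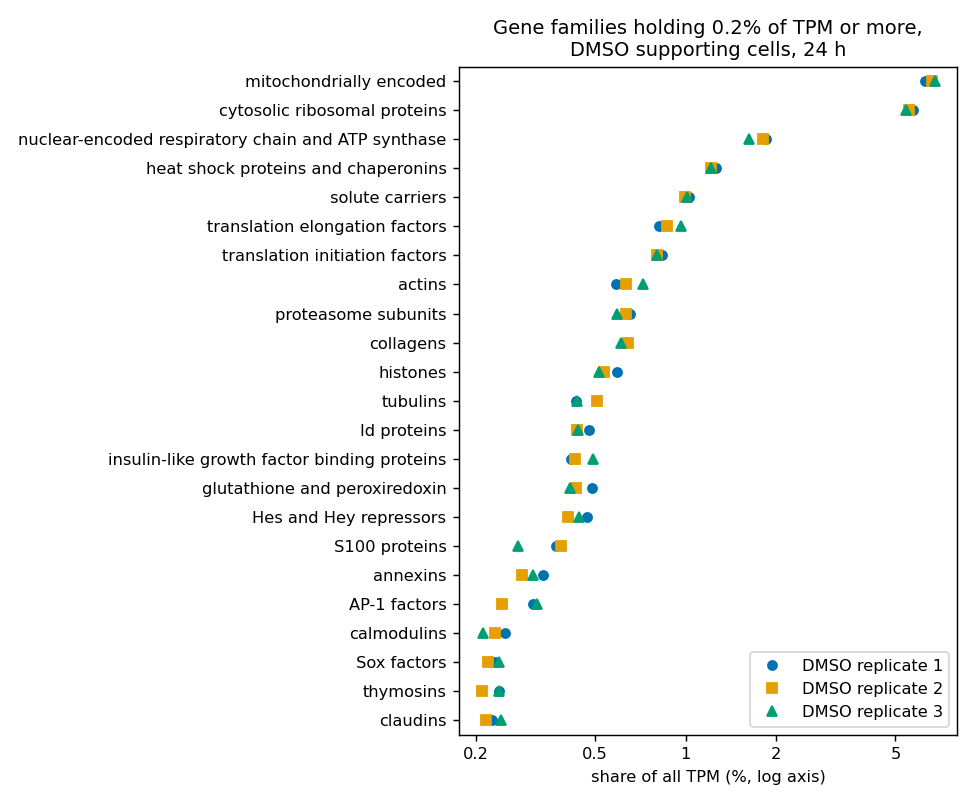
Share of all TPM held by each gene family of at least 0.2%, on a log axis, with 1 point per DMSO library. The mitochondrially encoded and ribosomal protein families lie above 5% in all 3 libraries, and S100 proteins and AP-1 factors show the wider gaps between libraries.

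Cell identity was read from lists of known markers, which were chosen with earlier results of these data known. The pan-supporting list also holds Lfng, whose reporter was sorted on. The levels of the lists are thus a description and no independent support. Where fewer cells of a type and less RNA per cell could both give a level, bulk libraries cannot tell them apart. Pan-supporting cell and prosensory genes were high: 19 of 20 reached 10 TPM in every library and 14 reached 100 TPM, against 19.4% and 3.70% of all identifiers. Their median level was 375, 294 and 334 TPM, and the median of their means lay at the 97.1th percentile of detected genes. The sort gene itself, Lfng, a glycosyltransferase that modifies Notch, was at 1108, 833 and 751 TPM, with the highest value in replicate 1. Sox2, the transcription factor that specifies the prosensory field (chr3:34649995-34652461, coordinates of RefSeq on GRCm38.p6), was at 715, 648 and 732 TPM. Sox9 was at 551, 499.9 and 567 TPM, and the ratio of Sox2 to Sox9 was 1.30, 1.30 and 1.29. Both factors were lowest in replicate 2. Counting error alone gives the ratio a wider spread at their 7838 and 12801 expected counts on average. Its evenness is thus no measure of precision.

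Further pan-supporting genes were high and even. Jag1, the Notch ligand of the prosensory domain, was at 1175, 1220.4 and 1318 TPM, and Gata3, a transcription factor of the developing ear, at 1183, 1225 and 1113 TPM. The epithelial adhesion genes Epcam and Cdh1 were at 1076, 949 and 988 TPM and 800.3, 978 and 936 TPM. Eya1, a transcriptional coactivator of ear development, was at 279, 286 and 283 TPM with a CV of 1.23%. Cdkn1b, the cell cycle inhibitor that keeps supporting cells out of division, was at 85.1, 89.6 and 87.6 TPM. The 1 exception in the list was Pax2, an early otic factor, at 0.21, 0.11 and 0.1 TPM.

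Pillar and Deiters cell genes had the highest median of all cell identity lists. All 15 reached 10 TPM and 13 reached 100 TPM in every library, and the list median was 735, 668 and 743 TPM, at the 99.0th percentile of detected genes. That median is the level of Gjb2, which is also in the gap junction list. On average Gjb6, Pdzk1ip1, S100b, Lgr5, Prox1, Rorb and Ngfr lay under the pan-supporting median of 330.1 TPM, and the other members lay above it. Beside Hes5, S100a1, Fgfr3 and Npy, the list held Prss23, a secreted protease, at 1305, 1304 and 1287 TPM. Its 3 values were close, with a CV of 0.766%, which is under the counting error at its 13372 expected counts on average. Prox1, a homeobox factor of pillar and Deiters cells, was at 163, 187 and 186 TPM, and Lgr5, an R-spondin receptor found in a subset of supporting cells, at 171, 176 and 218 TPM. Lgr5 was highest in replicate 3. The 2 lowest members were Rorb, an orphan nuclear receptor, at 37.2 TPM and Ngfr, a neurotrophin receptor of pillar cells, at 16.05 TPM on average.

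Markers of the neighbouring classes were present at lower medians. The 6 inner phalangeal and border cell genes all reached 10 TPM, with a median of 84.9, 74.5 and 78.2 TPM. Fabp7, a fatty acid binding protein, was at 585, 470.1 and 358 TPM, and Slc1a3, the glutamate transporter that clears transmitter beside the inner hair cell, at 164, 135 and 131 TPM. Fabp7 was the less even of the pair, highest in replicate 1. In the list of the greater epithelial ridge and interdental cells, 7 of 10 genes reached 10 TPM and the median was 121, 88.6 and 119 TPM. Beside Tectb and Clu it held Calb1 at 340.0, 382 and 327 TPM and Fgf10 at 113, 114 and 130.2 TPM, and at the low end Fst, an activin antagonist, at 1.87, 0.73 and 0.62 TPM, and Crabp1 at 1.70, 0.26 and 0.55 TPM. In the list of the lesser epithelial ridge, Hensen and Claudius cells, 5 of 8 genes reached 10 TPM and the median was 23.7, 24.4 and 25.6 TPM. Sparcl1 led it at 473, 326 and 459 TPM, while Bmp4, a growth factor of the outer ridge, was at 0.36, 0.44 and 0.53 TPM and Slc26a4, the anion exchanger pendrin, at 0.06, 0.55 and 0.06 TPM. Genes of several supporting cell classes were thus measured together, with those of the outer ridge partly near 0.

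**Figure D3:**
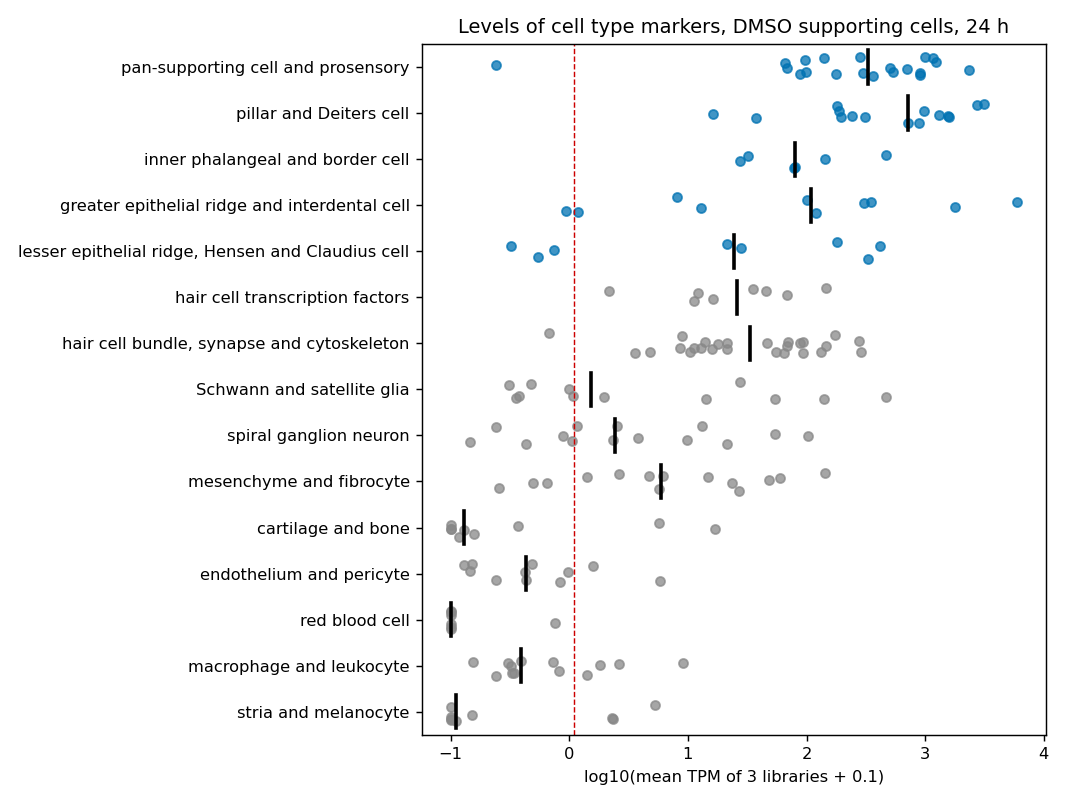
Mean TPM of each marker gene over the 3 DMSO libraries, as log10(mean TPM + 0.1), by cell type list. Each point is a gene, with supporting cell and ridge lists in blue and lists of other cell types in grey. The black bar is the list median and the dashed red line marks 1 TPM. The pan-supporting and the pillar and Deiters medians lie at 330.1 and 715 TPM, while cartilage, endothelium, red blood cell, macrophage and stria medians lie below 1 TPM.

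Hair cell genes were measured in every library, with list medians below those of the pan-supporting and the pillar and Deiters lists and close to that of the outer ridge list. All 8 hair cell transcription factors reached 1 TPM and 7 reached 10 TPM in every library, with a median of 24.0, 24.1 and 29.0 TPM. Pou4f3, which hair cells need for survival, was at 143, 141 and 154 TPM, and Atoh1, the factor that starts hair cell differentiation, at 66.9, 62.99 and 76.5 TPM. Gfi1, which acts with them, was at 32.5, 34.05 and 39.3 TPM. Sox2 was 10.7, 10.3 and 9.57 times as high as Atoh1. Of the 7 well-counted factors, 6 had their highest value in replicate 3, against 30.3% of all 8967 genes, and none stood apart there. Of 26 genes of the hair bundle, synapse and cytoskeleton, 25 reached 1 TPM and 18 reached 10 TPM in every library. Myo6 and Myo7a, motors of hair cells, were at 238, 313 and 305 and 57.9, 69.6 and 79.1 TPM, and Cib2 and Lhfpl5, parts of the transduction complex, at 272, 278 and 276 and 142, 133 and 158 TPM. Otof, needed for transmitter release, was at 149, 207 and 163 TPM. Slc26a5, which encodes prestin, the motor of mature outer hair cells, was at 0.44, 0.63 and 0.66 TPM. Summed over a list, the transcription factors held 325, 320.3 and 365 TPM and the bundle and synapse genes 1607, 1826 and 1792 TPM. Whether this RNA came from hair cells in the sort or from the supporting cells was not tested.

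Other cell types had low list medians, with single members at higher levels. Of 12 genes of Schwann and satellite glia, 5 reached 10 TPM, and 3 of those, Fabp7 and Sox10 among them, are shared with the supporting cell lists. Sox10, a factor of neural crest glia and of the whole otic epithelium, was at 131, 139.8 and 150.2 TPM. Mbp, a myelin protein, was at 13.4, 13.98 and 14.6 TPM. The list summed to 819, 719 and 595 TPM. Of 14 genes of spiral ganglion neurons, 4 reached 10 TPM, led by the neurofilament genes Nefl at 101, 107 and 100.3 TPM and Nefm at 54.7, 45.2 and 63.7 TPM, while Prph was at 0.11, 0.1 and 0.21 TPM and Elavl3 at 0.07, 0.07 and 0 TPM. That list summed to 217, 201 and 221 TPM.

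Of 14 genes of mesenchyme and fibrocytes, 6 reached 10 TPM, led by the proteoglycans Lum at 156, 125 and 151 TPM and Dcn at 67.1, 34.2 and 76.2 TPM. The list median was 11.1, 3.585 and 3.56 TPM, and the median of the member means was 5.84 TPM over all libraries and 3.215 TPM without replicate 1. Otor, a secreted protein of the cochlea, was at 57.1, 10.97 and 11.97 TPM, Col1a2, a collagen of connective tissue, at 11.2, 3.55 and 3.49 TPM and Coch, the major protein of fibrocytes, at 10.97, 2.61 and 3.19 TPM, each highest in replicate 1. Twist1, a regulator of mesenchyme, was at 0.49, 0.22 and 0.47 TPM. The list summed to 390, 278 and 342 TPM.

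The remaining cell types were near 0. All 6 haemoglobin and glycophorin genes of the red blood cell list were at 0 in every library, and Alas2, the haem synthesis enzyme, was at 0.45, 0.83 and 0.7 TPM. Of 13 macrophage and leukocyte genes 2 reached 1 TPM, Laptm5 at 7.90, 6.41 and 12.8 TPM and C1qb at 1.75, 2.28 and 3.55 TPM, and Ptprc, the common leukocyte antigen, was at 0, 0.16 and 0 TPM. The macrophage list summed to 13.6, 14.4 and 24.0 TPM. Of 11 endothelium and pericyte genes 2 reached 1 TPM, Flt1 and Rgs5, with Pecam1 at 0.82, 0.53 and 0.85 TPM and Cdh5 at 0.6, 0.25 and 0.31 TPM. Of 9 cartilage and bone genes 1 reached 1 TPM, Matn1 at 20.7, 10.00 and 20.1 TPM, while Sp7, Bglap and Matn3 were at 0 and Acan, the main proteoglycan of cartilage, was at 0.15, 0.02 and 0 TPM. Col2a1 was thus high where Acan was near 0. Spp1, a secreted phosphoprotein of bone, was at 1.14, 14.7 and 0.82 TPM, with its value in replicate 2 above both others. Of 9 stria and melanocyte genes 3 reached 1 TPM, and Tyrp1, Mlana, Esrrb and Kcne1 were at 0.

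The Notch pathway was expressed at each step. Of 28 listed genes, 27 reached 1 TPM, 22 reached 10 TPM and 11 reached 100 TPM in every library, with a median of 71.4, 61.0 and 61.9 TPM. Among ligands, Jag1 was the highest, with Jag2 at 41.6, 47.8 and 54.2 TPM, and Dll1, Dll3 and Dll4, of the Delta family, at 8.38, 9.07 and 5.28 TPM on average. Among receptors, Notch1 was at 70.3, 67.2 and 66.6 TPM and Notch3 at 35.9, 42.5 and 44.1 TPM, while Notch2 was at 0.37, 1.02 and 0.4 TPM. The level of Jag1 was 16.7, 18.2 and 19.8 times that of Notch1. Subunits of gamma-secretase, the enzyme that DAPT inhibits, were between 45.7 TPM for Psen2 and 166 TPM for Ncstn, and Rbpj, the DNA-binding partner of cleaved Notch, was at 17.9, 19.4 and 24.3 TPM.

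The target Hes5 was the highest member. It was 7.73, 9.56 and 9.07 times as high as Hes1, which was at 437, 303 and 346 TPM. Hey1, a repressor of the same family, was at 496, 482 and 534 TPM, Hey2, which marks pillar cells, at 98.98, 91.8 and 108 TPM, and Heyl at 121, 118 and 114 TPM. Nrarp, a feedback inhibitor of the pathway, was at 163, 125 and 141 TPM. None of the 22 well-counted members stood apart in any replicate. The promoters of Hes5, a target, and Lfng, whose reporter was sorted on, are shown because RBPJ binds a core of TGGGAA. Each is the window of 250 bases before the transcript start in the RefSeq promoter table of GRCm38.p6, read 5′ to 3′ on the gene's strand, with TGGGAA or its reverse complement TTCCCA in capitals. Hes5 is chr4:154960673-154960922, plus strand, a window that lies inside the RefSeq span of the gene because that span begins further upstream. Lfng is chr5:140607091-140607340, plus strand.
Hes5: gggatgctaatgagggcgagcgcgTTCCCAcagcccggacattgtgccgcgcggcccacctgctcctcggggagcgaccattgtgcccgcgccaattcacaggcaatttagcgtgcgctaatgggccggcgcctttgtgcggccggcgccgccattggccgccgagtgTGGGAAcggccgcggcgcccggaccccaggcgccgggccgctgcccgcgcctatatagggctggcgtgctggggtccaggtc
Lfng: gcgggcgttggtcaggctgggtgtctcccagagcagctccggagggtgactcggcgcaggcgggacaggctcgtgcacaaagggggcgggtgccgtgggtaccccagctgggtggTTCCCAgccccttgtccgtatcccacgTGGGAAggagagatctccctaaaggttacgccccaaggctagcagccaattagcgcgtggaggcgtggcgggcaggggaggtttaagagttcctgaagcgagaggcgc
Hes5 held TTCCCA beginning 226 bases and TGGGAA beginning 82 bases before the start, and Lfng held TTCCCA at 135 bases and TGGGAA at 108 bases. In Lfng the last of these shares its first bases with ACGTG on the same strand. Of the 28 Notch genes, 23 had a window in the table and 6 (26.1%) held TGGGAA on either strand, against 24.1% of the 27025 genes in it. The share in the list was thus near that of all genes, and a match is a match of letters only.

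The tectorial membrane and its collagens formed another high group. Of 12 listed genes, 11 reached 10 TPM and 9 reached 100 TPM in every library, with a median of 432, 479 and 415 TPM, at the 98.0th percentile of detected genes. Tecta, which encodes alpha-tectorin, was at 1621, 1153 and 1465 TPM, and Tectb was 3.83, 4.93 and 4.14 times as high. Tecta was lowest in replicate 2, where the ratio was highest. Col9a2 was at 1111, 1023 and 984 TPM and Col11a2 at 505, 722 and 513 TPM, both partners of Col2a1 in fibrils. Otog, an otogelin gene, was at 251, 244 and 219 TPM and Otoa, which anchors the membrane to the inner ridge, at 129, 63.1 and 107 TPM. Ceacam16, a protein of the later tectorial membrane, was at 0 in every library.

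Gap junction and potassium genes were led by the pair of connexins mutated in common forms of deafness. Gjb2, connexin 26, was at 735, 668 and 743 TPM, and Gjb6, connexin 30, at 369, 257 and 299.9 TPM, a ratio of 1.99, 2.60 and 2.48. Of 15 listed genes 13 reached 1 TPM and 9 reached 10 TPM. The potassium-chloride cotransporter Slc12a7 was at 139.5, 125 and 134 TPM, and Atp1b1, a subunit of the sodium-potassium pump, at 222, 189 and 195 TPM. The potassium channel genes of the stria, Kcnq1 and Kcne1, were at 3.02, 1.83 and 1.73 TPM and at 0.

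Members of other signalling pathways ranged widely in level. In the FGF list, 10 of 16 genes reached 10 TPM in every library, and Fgfr3 was 13.4, 16.9 and 15.1 times as high as Fgfr1, while Fgfr2 was at 1.80, 0.22 and 0.57 TPM. Of the target and feedback genes of FGF signalling, Dusp6, Etv5, Spry1 and Spry2 were each lowest in replicate 1. Dusp6 was at 248, 280.5 and 311 TPM, Etv5 at 128, 148 and 164 TPM and Spry1 at 113, 122 and 142 TPM. Etv4, at 59.1, 62.8 and 57.6 TPM, and Il17rd were lowest in replicate 3 and Spry4 in replicate 2. The list had its highest value in replicate 3 for 8 of 10 well-counted genes, against 30.3% of all 8967 genes. None of the 10 stood apart. In the Wnt list 17 of 20 genes reached 10 TPM, led by the secreted antagonist Sfrp1 at 867, 739 and 932 TPM and by Ctnnb1, beta-catenin, at 211, 188 and 207 TPM. The target genes Axin2 and Lef1 were lower, at 7.56, 5.90 and 5.16 and 1.49, 1.05 and 0.96 TPM. Lgr5, Rnf43, Nkd1 and Znrf3 of the same list were above both, at 188, 27.4, 20.0 and 13.5 TPM on average. In the TGF-beta, BMP and activin list 19 of 25 genes reached 10 TPM. The Id genes, targets of BMP signalling, were at 864 TPM or more, while the ligand Bmp4 was under 1 TPM and Bmp7 and Bmp2 were at 59.3 and 53.9 TPM on average. Inhba, a subunit of activin, was at 223, 202 and 197 TPM and its antagonist Fst at 1.87, 0.73 and 0.62 TPM.

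Mitotic genes were low, while several cell cycle inhibitors were above 50 TPM. Cdkn1c was at 261, 148 and 178 TPM and Cdkn1a at 151, 119 and 145 TPM, and Ccnd3 and Ccnd1, cyclins of the first phase, were at 162, 157 and 156 and 87.4, 81.7 and 64.9 TPM. Mki67, a marker of dividing cells, was at 0.39, 0.16 and 0.18 TPM, Ccnb1, the mitotic cyclin, at 0.8, 0.28 and 0.17 TPM and Top2a at 4.30, 2.72 and 1.18 TPM. Of 24 listed genes 10 reached 10 TPM in every library, and the median was 7.40, 6.02 and 7.16 TPM. The replication genes Mcm7 and Pcna were among these 10, at 35.3, 33.6 and 45.9 and 33.9, 20.7 and 22.6 TPM, while the inhibitor Cdkn2c was at 0, 0.35 and 0.36 TPM. Ccnd2 was at 1.84, 1.77 and 7.31 TPM and Cdk1 at 1.19, 0.81 and 5.65 TPM, both highest in replicate 3, while Mki67, Top2a and Ccnb1 were highest in replicate 1. Cdk1 and Ccnb1 had 7 and 4.33 expected counts on average, so counting error is large for them.

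Immediate early genes, which respond to handling and to growth factors within minutes, were among the most abundant. Of 20 immediate early and stress genes 17 reached 10 TPM and 11 reached 100 TPM in every library, with a median of 234, 192 and 246 TPM, at the 95.1th percentile of detected genes. Fos was at 835, 738 and 938 TPM, Jun at 836, 675 and 910.1 TPM and Ier2 at 1162, 941 and 1149 TPM. Junb was at 769, 508 and 750.3 TPM, and each of these 4 was lowest in replicate 2. Hspa1a and Hspa1b, the inducible heat shock genes, were at 0.92, 2.02 and 3.03 and 3.74, 5.84 and 5.66 TPM, far under their constitutive relative Hspa8. Cyp1a1, a target of the aryl hydrocarbon receptor, was at 1033, 290.1 and 917 TPM, and replicate 2 lay under both others.

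Levels were stable between the libraries for most genes. Over the 10055 genes with a mean of at least 10 TPM, the median CV was 9.51%. Over the 9402 of them with at least 100 expected counts on average it was 9.12%, with a 5th percentile of 2.13% and a 95th percentile of 25.2%. The highest library was under 1.5 times the lowest for 8562 of these genes (91.1%), and 62 genes had a CV over 50%. Spearman's rho across the 14441 detected genes was 0.983 between replicates 1 and 2, 0.980 between 1 and 3 and 0.984 between 2 and 3. These correlations run across genes, which are not independent replicates. Over all genes, with the many near 0, rho was 0.923 to 0.926.

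The spread depended on the level. For genes at 1 to 3 TPM the median CV was 34.5%, where counting error alone gives 26.4%. At 10 to 30 TPM it was 11.7% against 6.0% from counting, and at 100 to 300 TPM it was 7.13% against 2.47%. At 1000 TPM and more the 99 genes had a median CV of 7.86%, where counting gives 0.983%. Counting error was thus a larger part of the median spread at the lowest levels than above 100 TPM. A CV from 3 values tends to fall below the true one, so counting alone would give medians under the counting values printed here. Gene models with an effective length under 50 bases were left out of these values.

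**Figure D4:**
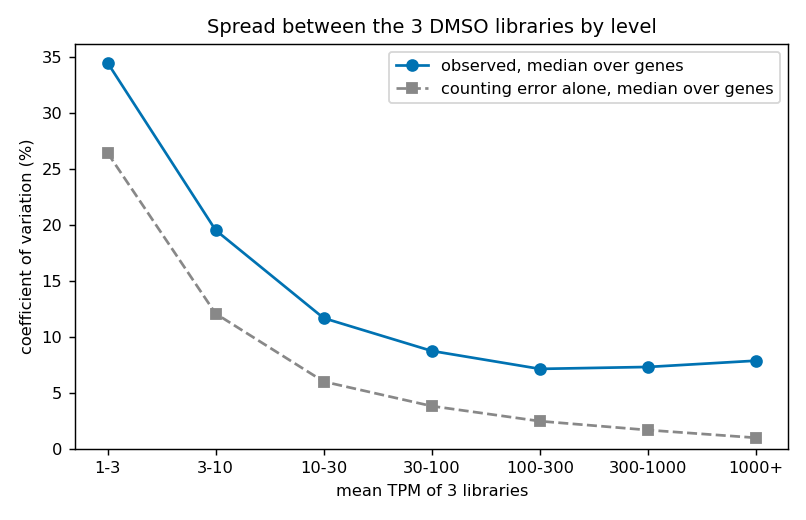
Median CV between the 3 DMSO libraries by mean TPM (blue circles), beside the CV that counting error alone gives at the same expected counts (grey squares, dashed). The observed median runs from 34.5% at 1 to 3 TPM to 7.86% at 1000 TPM and more, while the counting value goes on down to 0.983%.

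The steadiest and the least steady genes differed in kind. Among genes at 100 TPM or more the smallest CV was that of Maged1, an adaptor of neurotrophin receptors, at 379.6, 380.4 and 379 TPM, a CV of 0.16%. Counting error alone gives 1.31% at its depth, so a CV this small is no measure of precision. Glod4 at 87.8, 87.7 and 87.8 TPM was likewise under its counting error of 3.88%, and so were Prss23, Eya1 and Fgfrl1 under theirs. Among genes of at least 10 TPM, the 12 largest CVs all belonged to microRNA, small nucleolar RNA or predicted genes that were seen in a single library, such as Mir339 at 0, 246 and 0 TPM. In all, 65 genes were of this kind, each with under 30 expected counts on average. Their models are so short that a single read becomes many TPM: models with an effective length under 50 bases held 1.47%, 1.59% and 1.78% of TPM on 0.0164%, 0.0162% and 0.0141% of the expected counts. Pseudogenes and predicted genes with more counts also ranked high at 100 TPM or more, such as Rps2-ps13 at 0, 123 and 237 TPM and Gm13841 at 0.18, 301 and 317 TPM. Pseudogenes can share reads with their parent genes. With a curated symbol and the minimum of 100 counts, both required after these values were seen, the largest CVs at 100 TPM or more were those of Ndufa4l2, Igfbp2, Ldha, Bnip3, Vegfa, Tpi1 and Aldoa.

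Those 7 genes were high in replicate 3, and most are known as genes of glycolysis or of the response to low oxygen. Oxygen shortage stabilises the transcription factor HIF, which raises glucose transporters, glycolytic enzymes, lactate export and mitophagy genes. Ndufa4l2, a mitochondrial protein induced by HIF, was at 22.8, 16.3 and 279.8 TPM. Ldha, which makes lactate, was at 242, 413 and 1165 TPM, and Bnip3, a mitophagy receptor, at 129, 253 and 641 TPM. In all 3 genes replicate 3 was far above both others, and in Ldha and Bnip3 replicate 2 was also above replicate 1. Car9, a carbonic anhydrase of the cell surface, was at 2.76, 1.28 and 46.4 TPM, and Vegfa, the vascular growth factor, at 61.7, 72.5 and 187 TPM. Igfbp2, a carrier of insulin-like growth factors, was at 44.95, 40.4 and 216 TPM.

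A list of 21 glycolysis enzymes and transporters and a list of 20 oxygen-responsive genes were written after these values were seen, so they are a description and no independent support. In the glycolysis list 15 of 20 well-counted genes stood higher in replicate 3 and in the oxygen list 14 of 18, against 0.836% of all 8967 genes, and together they were 29 of the 75. Neither list had a gene that stood lower in replicate 3. The listed genes summed to 5727, 7102 and 11643 TPM for glycolysis and to 1788, 2007 and 3984 TPM for the oxygen response. Replicate 1 was the lowest of the 3 and replicate 2 lay nearer to it.

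The steps of the pathway can be followed in order. The glucose transporter Slc2a1 was at 97.6, 115 and 201 TPM and hexokinase 2, Hk2, at 15.2, 18.5 and 43.8 TPM, while Hk1, the constitutive hexokinase, was at 52.9, 51.8 and 62.1 TPM. Pfkl and Pfkp, subunits of phosphofructokinase, were at 111, 146 and 313 and 15.2, 26.8 and 79.5 TPM, and Pfkfb3, which makes its activator, at 3.72, 7.19 and 29.6 TPM. Both hexokinases were highest in replicate 3, Hk2 by more than Hk1. Aldoa was at 459, 581 and 1369.7 TPM and its brain isoform Aldoc at 329.7, 376 and 398 TPM. Tpi1 was at 94.7, 135 and 306 TPM, Pgk1 at 290.4, 372 and 788 TPM and Pkm, pyruvate kinase, at 931, 1069.9 and 1995 TPM. Slc16a3, the lactate exporter, was at 25.3, 50.8 and 159.9 TPM. In contrast Ldhb, the other lactate dehydrogenase, was at 1216, 1554 and 1201 TPM, so that the ratio of Ldhb to Ldha was 5.02, 3.76 and 1.03. Gapdh, often used as a constant reference, was at 277, 359 and 602 TPM, and Actb at 1323, 1596 and 1538 TPM. The expected counts of Gapdh, Aldoa, Ldha and Pgk1 averaged 2575.76, 6150.75, 5020.1 and 4762.72. Such fractions arise where reads are split between gene models, so the levels and ratios of these genes are uncertain. Hif1a itself was at 397, 329 and 395 TPM, level in replicates 1 and 3.

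**Figure D5:**
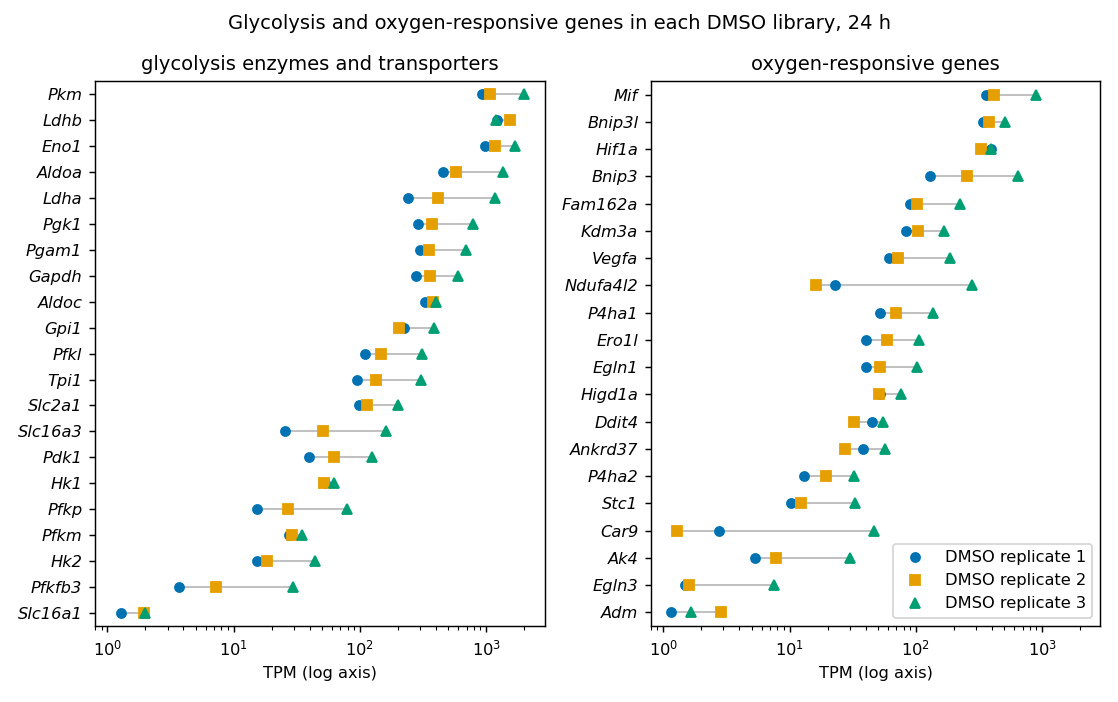
TPM of each gene of the 2 lists in each DMSO library, on log axes, ordered by mean TPM. In both panels the green triangle of replicate 3 lies to the right for most genes, up to 46.4 TPM against 2.76 and 1.28 TPM for Car9, while Ldhb, Hif1a, Hk1 and Aldoc stay close.

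Promoters of 3 of these genes are shown because ACGTG is a form of the core that HIF binds, here in capitals with its reverse complement CACGT. Other forms of the core were neither marked nor counted. They are 250-base windows of the same RefSeq table, GRCm38.p6, read 5′ to 3′ on the gene's strand. Ldha, the first of its 2 windows, is chr7:46845554-46845803, plus strand, inside the gene's RefSeq span. Bnip3 is chr7:138909507-138909756, minus strand, and Pgk1 is chrX:106186850-106187099, plus strand.
Ldha: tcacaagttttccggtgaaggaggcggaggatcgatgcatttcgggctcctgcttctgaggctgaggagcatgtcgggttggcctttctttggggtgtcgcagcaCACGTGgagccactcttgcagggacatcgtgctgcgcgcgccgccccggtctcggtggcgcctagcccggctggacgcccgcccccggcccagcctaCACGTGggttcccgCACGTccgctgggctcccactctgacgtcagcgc
Bnip3: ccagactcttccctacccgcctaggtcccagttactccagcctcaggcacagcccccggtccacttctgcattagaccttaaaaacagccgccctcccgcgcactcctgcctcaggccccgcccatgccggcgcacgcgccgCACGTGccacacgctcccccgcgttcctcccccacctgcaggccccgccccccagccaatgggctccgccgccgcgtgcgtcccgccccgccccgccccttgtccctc
Pgk1: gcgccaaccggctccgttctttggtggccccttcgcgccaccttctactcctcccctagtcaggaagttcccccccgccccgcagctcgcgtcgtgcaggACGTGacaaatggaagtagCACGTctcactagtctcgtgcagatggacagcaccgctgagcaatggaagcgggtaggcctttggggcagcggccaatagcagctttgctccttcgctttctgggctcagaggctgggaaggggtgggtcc
Ldha held the core in 3 separate places, the farthest beginning 145 bases before the start and the nearest 34 bases before it. In 2 of them the core overlaps its own reverse complement in a palindrome, CACGTG. Bnip3 held 1 such palindrome at 108 bases, and Pgk1 held ACGTG at 150 bases and CACGT at 131 bases. Of the 21 glycolysis genes, all with a window, 11 (52.4%) held the core on either strand, and of the 16 oxygen-responsive genes with a window 12 (75%) did, against 18.5% of all 27025 genes. By window the shares were 41.2% of 34, 54.5% of 22 and 16.6% of 32851. Base composition of the windows was not matched, and both lists were chosen with the levels known. The oxygen list was also made of genes known to respond to low oxygen, so a higher share of a HIF core was built into that choice. The shares thus describe these genes alone, and a part of HIF in the levels of replicate 3 was not tested.

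In replicate 3 no well-counted gene of the pan-supporting, pillar and Deiters, or hair cell lists stood apart. Of the inner phalangeal list 2 of 6 genes stood lower, S100a6 at 92.5, 92.2 and 53.8 TPM among them. The 55 genes lower in replicate 3 also held Me2, a malic enzyme, at 417, 509.5 and 143 TPM. Genes of the sex chromosomes differed as well. The Y-linked genes Eif2s3y and Ddx3y were at 41.1, 54.8 and 89.6 and 24.6, 24.7 and 52.6 TPM, and Xist, the RNA that coats the inactive X chromosome, at 22.9, 25.2 and 6.50 TPM. Both kinds were present in all 3 libraries, with Y-linked genes highest and Xist lowest in replicate 3. The part of this difference in the levels of other genes was not tested.

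Replicates 1 and 2 each stood apart in other genes. The largest folds among the 63 genes higher in replicate 1 were those of H19, an imprinted noncoding RNA, at 37.2, 2.32 and 1.61 TPM, and Oc90, the otoconial protein that nonsensory ear epithelium secretes, at 108, 6.29 and 10.3 TPM. Otor and Cnmd, an extracellular protein of cartilage and ear, also stood higher there, Cnmd at 151, 58.7 and 45.8 TPM. Otor was the 1 of 6 well-counted mesenchyme genes to do so. In replicate 2, Frzb, a secreted Wnt antagonist, stood higher at 92.1, 189 and 102 TPM, and Ccn2, a matrix protein of the ridge list, stood lower at 391, 174 and 345 TPM. Elf3, an epithelial factor, was at 81.3, 36.9 and 95.2 TPM and Krt17 at 16.7, 6.59 and 18.9 TPM, both lowest in replicate 2, as Cyp1a1 was. Genes named for a single library were the extremes of that library and were chosen after their values were seen, as were list members named outside the 5 highest.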

How the data were processed

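RNA of Lfng-GFP supporting cells from DMSO cultures of 24 h was measured in 3 libraries, 1 deposited table per sample. Per the submitters' processing notes, STAR and RSEM were used on the mouse build mm10, and versions and settings were not stated. The authors deposited RSEM values per gene: TPM, scaled by the authors to 1000000 per library, and expected counts, an estimate of reads that need not be whole. TPM gave every level. Expected counts gave depth (10666050 to 12124862 per library), counting error and the count minimum. No aligned read was seen, so strand setting and read splitting between copies are unknown, and antisense and overlapping genes may share reads.

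Of 48709 Ensembl identifiers, 48349 matched a symbol once version suffixes were removed, and 63 symbols with more than 1 identifier were left out of lists. Coordinates and promoters are RefSeq, GRCm38.p6. Means are given with the SD over 3 libraries, and CV is SD over mean in percent. Percentiles are those among genes at 1 TPM or more in all libraries. The CV from counting error is 100 divided by the square root of the mean expected count. Calculations used Python 3.11.15, pandas 2.3.3 and numpy 2.4.6. The CV step was checked on simulated counts through the root mean square of CVs after counting error was subtracted. That check does not cover the medians of unadjusted CVs given here. Alternatives were leaving out each library, other TPM limits, rescaling without mitochondrially encoded genes, median ratio scaling, and CPM from expected counts with TMM factors (edgeR 4.0.16, R 4.3.3).

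The members, 24 lists and 32 families were chosen with earlier results of these data known, and 2 lists (glycolysis, oxygen response), the minimum of 100 counts and the curated symbol for CVs were added after the levels were seen. Named genes are the 25 most abundant nuclear genes, the 5 highest of each list, the 3 highest of each family, the 12 largest and smallest CVs and members at 0 of other cell types. A few genes that this rule names are not reported here. All other samples of the series were not analysed here.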

Additional observations from a re-analysis of the deposited data

How the results depend on the processing

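Of 210 alternative values for 43 results, 179 moved by less than a measure of spread or, for counts of genes, by under 1.5 times. None changed direction, since the results are levels. The spread was the SD over libraries for shares and list medians, and over pairs of libraries for correlations. For the median CV it was the SD over the values with each library left out. Leaving out a library cannot move the mean of a share beyond that SD, so those alternatives stayed within it by construction. Shares depend on the scale. From expected counts, which weight long transcripts, the top 10, 100 and 1000 genes held 4.77%, 17.7% and 47.2%, and without mitochondrially encoded genes 5.35%, 19.4% and 51.0% of TPM. Expected counts gave 2.39% for mitochondrially encoded genes, 1.51% for ribosomal proteins, 1.26% for collagens, 0.295% for Hes and Hey repressors and 0.0934% for S100 proteins. Without mitochondrially encoded genes the ribosomal proteins held 5.94% and the collagens 0.668%. The glial median was 0.893 TPM without members that other lists share. Under median ratio scaling 0 cartilage genes reached 10 TPM in every library, and at a limit of 5 TPM 1 macrophage gene did.

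Leaving out each library in turn gave a median CV of 6.70% to 8.44%, lower by construction with 2 values per gene, a cartilage median of 0.025 to 0.045 TPM, and pair correlations of 0.980 to 0.984 (Spearman) and 0.980 to 0.984 (Pearson). The median CV was 12.9% at a mean of 1 TPM or more and 15.1% for genes above 0 in each library. The lowest Spearman correlation was 0.959 at a mean of 1 TPM or more and 0.923 over all genes. The lowest Pearson correlation was 0.952, 0.983 and, with a pseudocount of 0.1, 0.977. For the 363 named genes, with a pseudocount value counted among them, 1451 of 1453 alternative values stayed within the spread between replicates. Glod4 and Fbxl17 under median ratio scaling were the others. Leaving out a library cannot move a mean beyond the SD of its values, so those alternatives stayed within it by construction. The median ratio factors were only 0.995, 1.01 and 0.996. The tally for named genes is thus no measure of robustness. No paired analysis was possible because the 3 libraries form a single group and no test was run.

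Depth limits genes under about 10 TPM, where counting error is a large part of the spread. With 3 libraries no SD is precise, and 3 values cannot show which library is unusual. Short gene models turn single reads into high TPM. The origin of the replicates is not labelled.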

Other observations

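Families not described above held further genes of known ear or epithelial roles. Sox21, a factor of the prosensory epithelium, was the third Sox gene at 305, 263 and 286 TPM, after Sox2 and Sox9, and the Sox family as a whole held 0.230% ± 0.00930 of TPM (SD, n = 3). Six2, a homeobox factor, was at 339, 337 and 380.4 TPM. Eya1 and Six2 belong to a family of 11 genes of which 8 reached 1 TPM in every library.

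Integrins had the most even share of the 32 families, with 0.150%, 0.150% and 0.152% of TPM and a CV of 0.844%. Itga6, a laminin receptor of epithelia, was at 617, 616 and 552 TPM, and Itgb1, the beta subunit of many integrins, at 229, 261 and 270.3 TPM. Itga8, needed for hair bundle formation, was at 211, 198 and 283 TPM and was highest in replicate 3. Laminins were less even, with Lamb2 at 172, 145 and 179 TPM and Lama5 at 100.4, 55.8 and 94.6 TPM. Cathepsin D, Ctsd, a lysosomal protease, was at 359.6, 301 and 313 TPM. Fgfrl1, an FGF receptor that lacks a kinase domain, was at 442, 438 and 437 TPM, among the 12 smallest CVs at 100 TPM or more.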
